A study of Rattus with 9 samples.

Results

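Large-diameter myelinated afferent neurons of the dorsal root ganglia were followed through 10 marker genes chosen by symbol for their known place in these neurons: the neurofilament subunit genes Nefh, Nefm and Nefl, the calcium-binding protein genes Pvalb and Necab2, the transcription factor genes Runx3 and Etv1, and Spp1, Ldhb and Cntnap2. Of the 10 symbols, 9 had a row among the 17378 genes, and all 9 were among the 11711 genes that passed the filter on low counts. Cntnap2 was not analysed here. Poly-A RNA was sequenced from thoracic T1-T4 ganglia of SD rats, 1 library per rat, 8 weeks after surgery, which was coronary ligation in 5 rats (myocardial infarction, MI) and a sham operation in 4. The deposited tables name the MI group CHF. Age and sex are not stated in the labels, and no sorting of cells is named, so each library holds the RNA of all neurons and supporting cells of the ganglia. No infarct size or cardiac function is given in the sources used here. The study set infarcted beside sham-operated rats to find genes whose ganglionic transcript level differs. Each library is from its own rat, so p-values measure the spread between rats.

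Sensory neurons with large cell bodies send thickly myelinated axons to muscle spindles, tendon organs and touch receptors, whereas most cardiac spinal afferents are thinly myelinated or unmyelinated. Large neurons are filled with neurofilaments, the intermediate filaments built from a light, a medium and a heavy subunit, which set the calibre of the axon. Parvalbumin marks proprioceptors, and in mice Runx3 and Etv1 are needed for proprioceptors to form and to connect to the spinal cord.

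Libraries held between 5656582 and 6861355 counts. RNA integrity numbers lay between 8 and 8.5, with means of 8.32 ± 0.217 after MI (SD, n = 5) against 8.33 ± 0.0957 after sham surgery (SD, n = 4). The ganglion label was met by its neuronal markers: 19 of 20 listed pan-neuronal genes had a row, all 19 passed the filter, and their summed level lay between 17337 and 17866 CPM in sham and between 17252 and 19033 CPM in MI rats. CPM is a gene's share of its library's reads, with library totals scaled by edgeR's TMM method. Markers of skeletal muscle, which also transcribes Pvalb in rodents, stood apart in 1 library of each group, at 170.9 summed CPM in Sham 3 and 159.6 in MI 3 against 43.8 to 80.7 in the other libraries.

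Levels of different genes were compared in RPKM, which also divides by transcript length, as the authors deposited them. The neurofilament genes were among the most abundant of all transcripts. Nefl ranked 2 among the 17378 genes with a mean of 2780 RPKM over the 9 libraries, Nefm ranked 4 with 2455 RPKM, and Nefh ranked 14 with 1202 RPKM. Together the 3 genes took between 2.77% and 3.22% of all counts in a library, with 2.95% ± 0.196 after MI (SD, n = 5) against 2.91% ± 0.116 after sham surgery (SD, n = 4). Spp1, the gene of the secreted phosphoprotein osteopontin, followed at 478 RPKM, then Ldhb, the lactate dehydrogenase subunit typical of oxidative tissue, at 233 RPKM, and Pvalb at 175 RPKM. Both transcription factor genes and Necab2 were far lower, with Etv1 at 30.9 RPKM, Runx3 at 2.04 RPKM and Necab2 at 1.97 RPKM.

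The order of levels was the same in all 9 libraries from Nefl down to Etv1. Ranges over libraries did not overlap between neighbours in that order, except for Nefl and Nefm, whose ranges overlapped although Nefl was higher in each of the 9 libraries. Runx3 and Necab2 could not be ordered: Runx3 was the higher of the pair in 5 of 9 libraries.

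**Figure D1:**
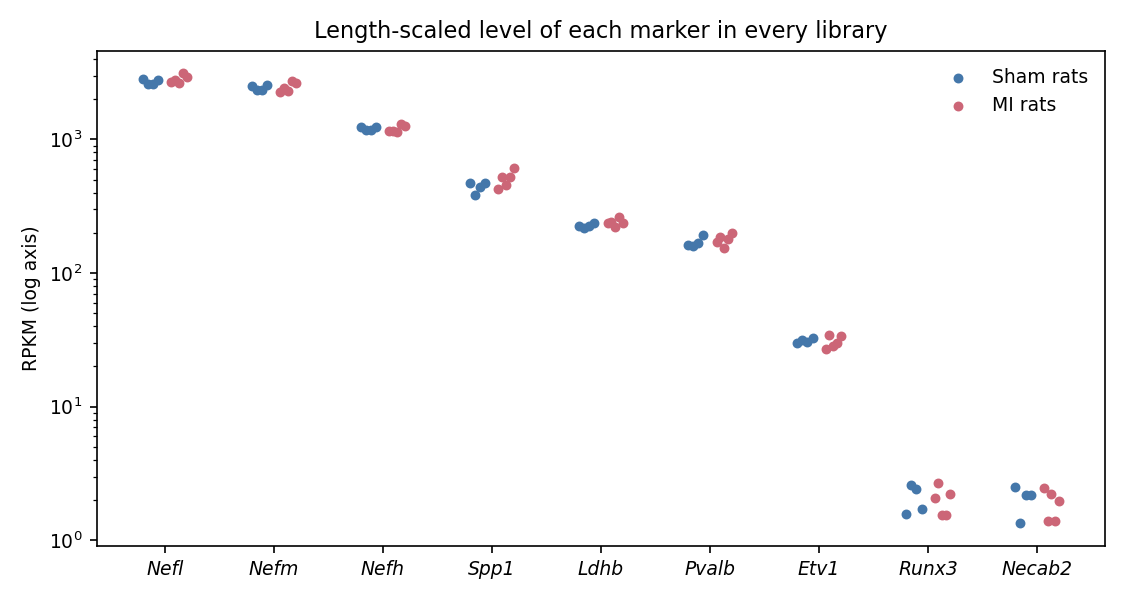
RPKM of each marker gene (log axis) in every library, 1 point per rat, blue for sham and red for MI. The 3 neurofilament genes lie at 1127 RPKM or above in all 9 libraries, and Runx3 and Necab2 lie near 2 RPKM.

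None of the 9 markers passed an adjusted p of 0.05 between MI and sham rats in the edgeR likelihood-ratio test fitted over all tested genes, where 2 of 11711 genes, or 0.0171%, did. At an unadjusted p under 0.05 the count was 0 of 9, against 4.64% of all tested genes. The edgeR quasi-likelihood test also gave 0 of 9 members at either level, with 0 of 11711 genes past the adjusted threshold and 5.14% of them at an unadjusted p under 0.05. For none of the 9 did the CPM values of the groups separate completely, while 1.76% of all tested genes did so. Log2 fold changes of MI over sham ran from -0.12 to 0.19 with a median of 0.01, 5 of them above and 4 below 0, beside a median of 0.00 over all tested genes. In these mixed ganglia, fewer cells of a type and less RNA per cell cannot be told apart.

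**Figure D2:**
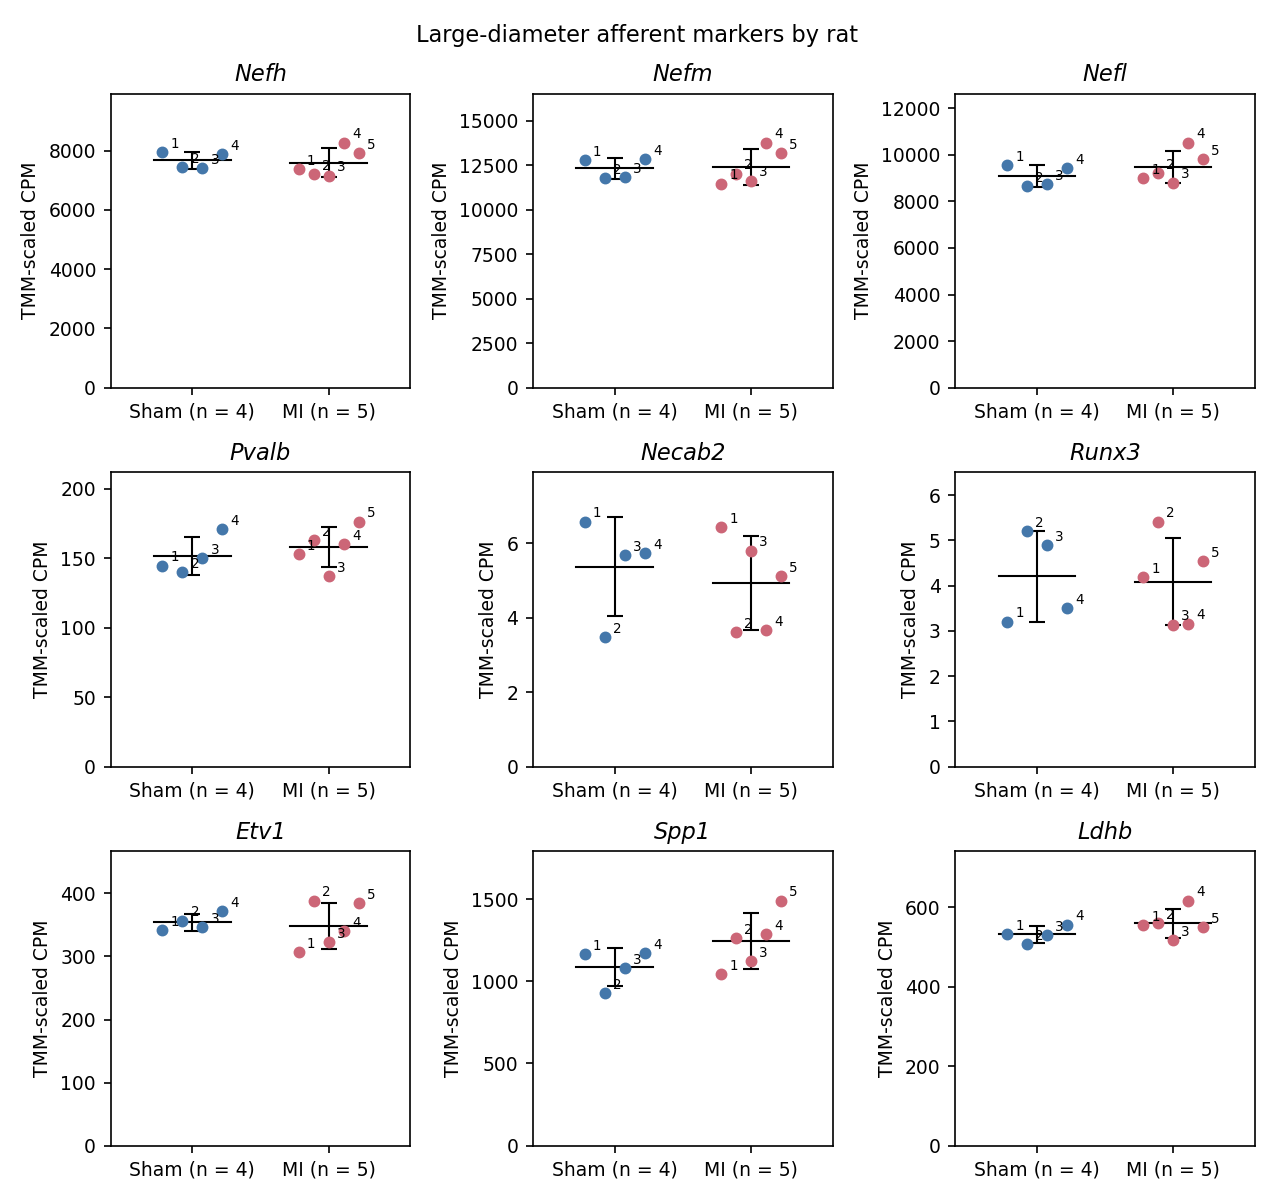
TMM-scaled CPM of each marker gene by rat, with replicate numbers beside the points, a line at the group mean and bars of 1 SD (sham n = 4, MI n = 5). The groups overlap in all 9 panels; Spp1 has 3 MI rats above every sham rat.

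Among the neurofilament genes, Nefl, the light subunit on which the filament is assembled, stood at 9554, 8668, 8728 and 9415 CPM in Sham 1 to 4. It stood at 8988, 9211, 8809, 10526.5 and 9831 CPM in MI 1 to 5. The 2 highest values, MI 4 and MI 5, lay above all shams, and the other 3 MI rats lay within the sham range. The group means were 9473 ± 704 CPM after MI (SD, n = 5) against 9091 ± 458 CPM after sham surgery (SD, n = 4), a log2 fold change of 0.06 (SE 0.06, edgeR adjusted p = 1.00). Nefm, the medium subunit, stood at 12409.9 ± 1012 CPM after MI (SD, n = 5) against 12309 ± 579 CPM after sham surgery (SD, n = 4). Its log2 fold change was 0.01 (SE 0.07), and its MI values, 11456 to 13764 CPM, reached past the sham range of 11786 to 12837 CPM on both sides. Nefh, the heavy subunit with a long phosphorylated tail, stood at 7592 ± 489 CPM after MI (SD, n = 5) against 7678 ± 279 CPM after sham surgery (SD, n = 4), with a log2 fold change of -0.02 (SE 0.05).

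The precision for these abundant genes was set by the spread between rats. The 95% interval of the log2 fold change by limma-voom ran from -0.05 to 0.17 for Nefl, from -0.10 to 0.12 for Nefm and from -0.11 to 0.08 for Nefh. Changes larger than these bounds lie outside the intervals, and smaller ones could not be resolved with 5 and 4 rats.

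**Figure D3:**
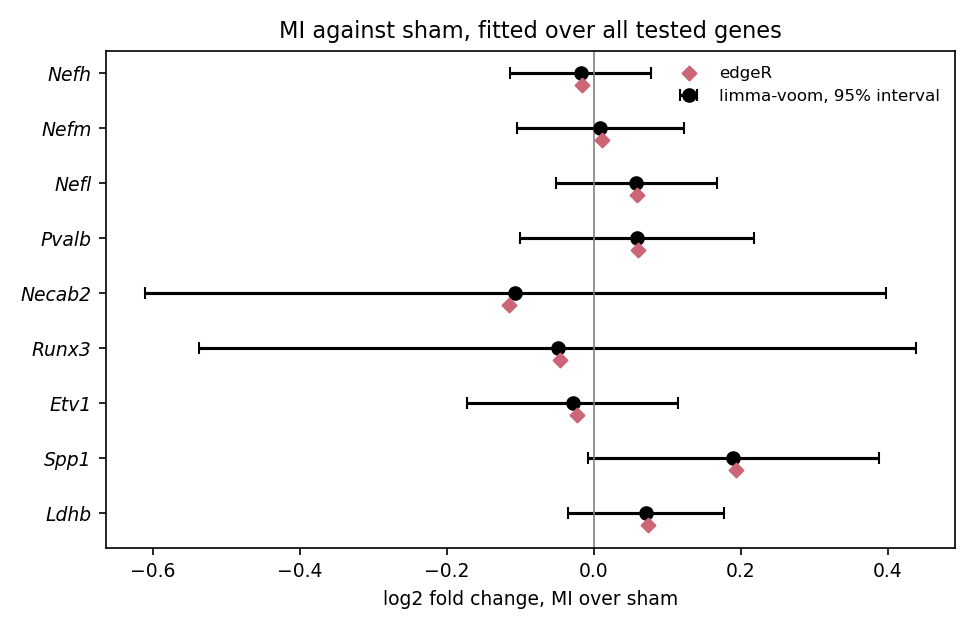
Log2 fold change of MI over sham for the 9 markers, as black points with 95% intervals by limma-voom and as red diamonds by edgeR. Every interval includes 0; those of Necab2 and Runx3 are the widest, and that of Spp1 runs from -0.01 to 0.39.

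The 3 neurofilament genes varied together from rat to rat. All 3 were above their mean over the 9 libraries in Sham 1, Sham 4, MI 4 and MI 5 and below it in the other 5 libraries. MI 4 was the highest library for each, at log2 0.12 for Nefh, 0.16 for Nefm and 0.18 for Nefl above the mean. Over the 9 rats the Pearson correlation of log2 CPM was 0.94 between Nefm and Nefl (Spearman rho 0.83, exact permutation p = 3.25e-04 and 0.00827, 0.0117 and 0.0992 after adjustment over the 36 pairs of markers). It was 0.94 between Nefh and Nefm (rho 0.80, exact p = 0.00108 and 0.0138, adjusted 0.0195 and 0.124). Between Nefh and Nefl it was 0.86 (rho 0.70, exact p = 0.00282 and 0.0432, adjusted 0.0338 and 0.195). Without the 2 rats farthest from the median of the first gene, r was 0.83, 0.88 and 0.73 for these pairs. Within groups, with each value taken from its group mean, r was 0.98, 0.95 and 0.97.

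These were the 3 of 36 pairs with an adjusted exact p of r under 0.05, and for rho there were 0. All pairs share library scaling, and the share of such pairs among all genes was not computed, so the counts of pairs have no baseline here. Of the remaining pairs, Nefl with Ldhb had r = 0.84 (rho 0.72, exact p = 0.0056 and 0.0369, adjusted 0.0504 and 0.19), which became 0.62 without the 2 farthest rats. Over all 36 pairs r was above 0 in 23. Runx3 and Necab2, with few reads, had r below 0 with each neurofilament gene, from -0.47 to -0.04. Without the 2 farthest rats, r of Necab2 turned to 0.16 with Nefh, 0.19 with Nefm and 0.33 with Nefl. That of Runx3 stayed below 0, from -0.46 to -0.07. Spp1 reached r = 0.75 with Nefl (rho 0.87, exact p = 0.0209 and 0.00451, adjusted 0.125 and 0.0992), and r was 0.70 without the 2 farthest rats. In the RefSeq table of assembly GRCr8, which differs from the authors' build, Nefl and Nefm are neighbouring genes and Nefh lies on another chromosome.

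Genes with a profile most like the mean of the 3 neurofilament genes were sought among 9138 genes with at least 10 CPM on average and taken by the highest r over the 9 libraries, so no test applies. They were Becn1 (autophagy) with r = 0.98, Sumo3 (a small protein modifier) with 0.97, Abcg4 (a sterol transporter) with 0.95, Gpam (glycerolipid synthesis) with 0.94 and Myh10 (non-muscle myosin) with 0.94. Spearman's rho for the 5 lay between 0.78 and 0.93, and r without the 2 farthest libraries between 0.90 and 0.96.

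A ratio of 2 genes within a library does not depend on library scaling. The RPKM ratio of Nefl to Nefh was 2.28, 2.20, 2.23 and 2.26 in Sham 1 to 4. In MI 1 to 5 it was 2.31, 2.42, 2.33, 2.41 and 2.35. Every MI value lay above every sham value, with means of 2.37 ± 0.0471 (SD, n = 5) against 2.25 ± 0.0338 (SD, n = 4). Taken as Nefh over Nefl, the mean after MI was 0.949 of the sham mean. Neither gene alone passed the threshold. This pair was the 1 of 36 marker pairs whose ratios did not overlap between groups, or 2.78%. Ratios of Nefh to any other gene with at least 10 CPM did not overlap for 0.928% of 9163 genes, those of Nefl for 1.21% and those of Nefm for 0.513%. The ratio was examined after the values of both genes were known, and no test is given. The RNA integrity number was lowest, at 8, in MI 2, the rat with the highest ratio, and its part in the ratio was not tested. For Nefl to Nefm the ratio was 1.15 ± 0.0213 after MI (SD, n = 5) against 1.11 ± 0.00938 after sham surgery (SD, n = 4), with Sham 1 at 1.125 just above MI 5 at 1.122. For Nefm to Nefh it was 2.06 ± 0.0595 after MI (SD, n = 5) against 2.02 ± 0.0252 after sham surgery (SD, n = 4), and the groups overlapped.

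**Figure D4:**
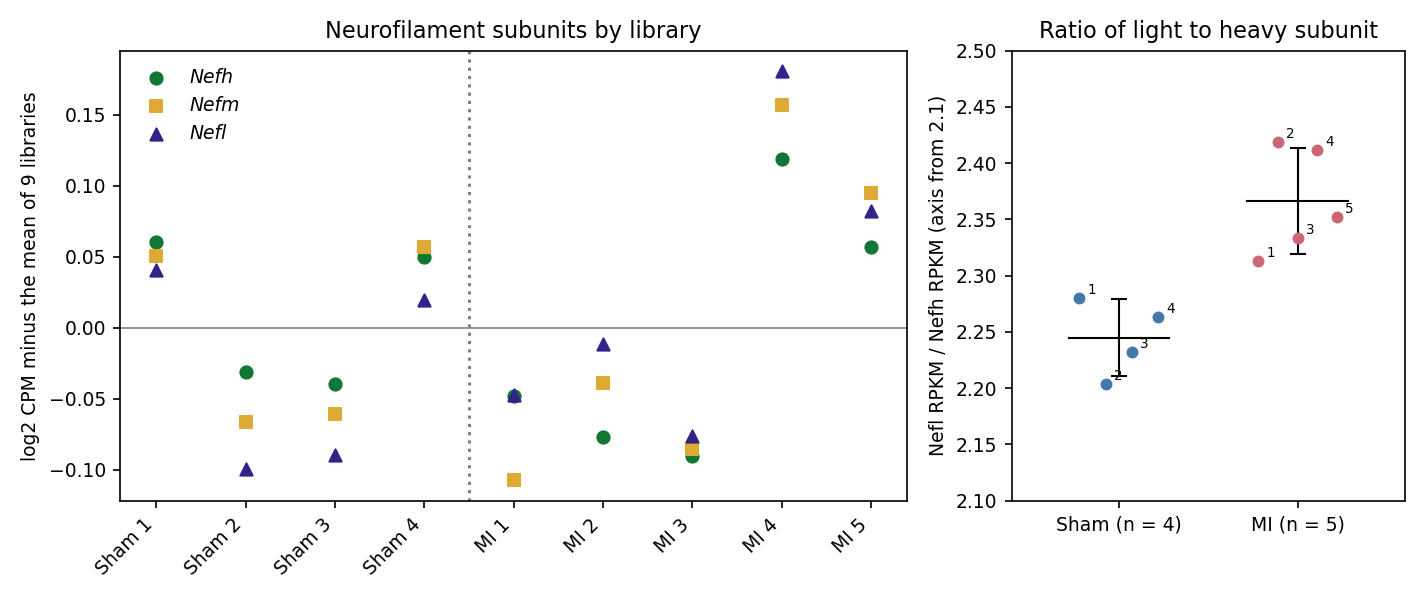
Left, log2 CPM of Nefh, Nefm and Nefl in each library as the difference from the gene's mean over 9 libraries; right, the RPKM ratio of Nefl to Nefh by rat with group mean and 1 SD, on an axis that starts at 2.1. The 3 genes are high together in MI 4 and MI 5, and the 5 MI ratios, 2.31 to 2.42, lie above the 4 sham ratios, 2.20 to 2.28.

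Pvalb, which encodes the calcium buffer parvalbumin, stood at 144.7, 140.3, 150.1 and 170.9 CPM in Sham 1 to 4. It stood at 152.7, 163.3, 137 and 160.2 CPM in MI 1 to 4 and at 176.4 CPM in MI 5. The highest value was MI 5 and the lowest MI 3, so the MI range enclosed the sham range. Means were 158 ± 14.5 CPM after MI (SD, n = 5) against 151 ± 13.6 CPM after sham surgery (SD, n = 4), a log2 fold change of 0.06 (SE 0.09, edgeR adjusted p = 1.00; limma-voom 95% interval -0.10 to 0.22). In the libraries with the highest muscle marker sums, Pvalb stood at 150.1 CPM (Sham 3) and 137 CPM (MI 3). The part of muscle in Pvalb was not tested. Of 15 muscle markers with a row, 12 were tested and 11 were lower in MI, with 0 past the threshold. Acta1 and Myh4 had the smallest p at log2 -0.53 and -1.09, values that rested on Sham 3: without it they were -0.14 and 0.51. Without MI 3, Acta1 was at -0.92. The 3 of highest RPKM were Acta1 (6.1 RPKM), Tnnt3 (4.91 RPKM) and Pygm (3.36 RPKM).

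Necab2, a neuronal calcium-binding protein gene, was read 22 to 40 times per library. It stood at 6.58, 3.47, 5.68 and 5.73 CPM in Sham 1 to 4 and at 6.43, 3.61, 5.81, 3.66 and 5.13 CPM in MI 1 to 5. Sham 2, MI 2 and MI 4 were low and the other 6 libraries were between 5.13 and 6.58 CPM, so low values occurred in both groups. The log2 fold change was -0.12 (SE 0.25), with a limma-voom 95% interval from -0.61 to 0.40. It lay at -0.01 without Sham 1 and at -0.28 without Sham 2.

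Runx3, the transcription factor that in mice directs proprioceptor identity, was read 18 to 33 times per library. Its levels were 3.20, 5.21, 4.89 and 3.50 CPM in Sham 1 to 4 and 4.18, 5.41, 3.14, 3.16 and 4.54 CPM in MI 1 to 5. Each group held values near 3 CPM and values above 5 CPM. The log2 fold change was -0.05 (SE 0.21), with an interval from -0.54 to 0.44. Changes within those bounds could not be resolved at this depth with 5 and 4 rats.

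Etv1, an ETS-family transcription factor, had 1908 to 2621 reads per library and stood at 348 ± 36.6 CPM after MI (SD, n = 5) against 354 ± 13.8 CPM after sham surgery (SD, n = 4). The sham rats were close together, at 341 to 372 CPM, and the MI rats more spread, with MI 1 at 307 and MI 3 at 323 CPM below all shams and MI 2 at 389 and MI 5 at 384 CPM above them. The log2 fold change was -0.02 (SE 0.08, interval -0.17 to 0.12). The difference in spread was not tested.

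Spp1 had the largest fold change of the 9. It stood at 1164, 929, 1082 and 1174 CPM in Sham 1 to 4 and at 1046, 1265, 1125, 1289 and 1491 CPM in MI 1 to 5. MI 2, MI 4 and MI 5 lay above every sham rat, and MI 1 and MI 3 lay within the sham range. Means were 1243 ± 171 CPM (SD, n = 5) and 1087 ± 113 CPM (SD, n = 4). The difference was 1.14-fold (log2 0.19, SE 0.12; limma-voom 95% interval -0.01 to 0.39) and did not pass (edgeR likelihood-ratio adjusted p = 1.00, quasi-likelihood adjusted p = 0.92). In the authors' deposited table Spp1 had a fold change of 1.14, p = 0.00584 and an adjusted p of 0.434. The unadjusted edgeR likelihood-ratio p computed here was larger, at 0.0532, and the reason was not tested. The log2 value was 0.12 without MI 5 and 0.12 without Sham 2, the rats at the ends of its range, and 0.25 without MI 1.

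Spp1 is also transcribed by macrophages and bone cells, so their markers are given beside it. All 18 macrophage markers were tested, 15 were higher in MI, their median log2 fold change was 0.18 and 0 passed the threshold. At an unadjusted p under 0.05 there were 4 of 18, all higher in MI, where 4.64% of all tested genes reached that level: Lyz2, Cx3cr1, C1qb and Itgam, the last pair named after their values were seen. Lyz2, a lysozyme, had log2 0.20 (SE 0.10). Cx3cr1, the fractalkine receptor, had 0.77 (SE 0.32) but few reads, 17.4 per library on average. The 3 of highest RPKM were Lyz2 (133 RPKM), Cd74 (92.5 RPKM, log2 0.00) and C1qc (31.6 RPKM, log2 0.06). Macrophage sums lay between 686 and 940 CPM in sham and between 798 and 957 CPM in MI rats, and no macrophage marker was at 0 in any library. Sham 2 had both the lowest macrophage sum and the lowest Spp1, while MI 4, second highest in Spp1, had the lowest macrophage sum of the MI rats. Bone and cartilage sums lay between 119 and 160 CPM in sham and between 108 and 164 CPM in MI rats. MI 5 was highest in both this sum and Spp1, while Sham 1, with a sum of 160 CPM, had Spp1 at 1164 CPM. The largest parts of the sum were Alpl, at a mean of 48.8 CPM in sham and 41.6 CPM in MI rats, and Ctsk, at 45.2 and 43.1 CPM. Of the 13 bone and cartilage genes, Sost had 0 counts in all libraries, and Bglap, Dmp1, Sp7, Acan and Mepe also did not pass the filter on low counts. The 7 tested genes had 0 past the threshold, and Ibsp and Alpl had the smallest p at log2 -0.46 and -0.23. The 3 of highest RPKM were Ctsk (18.8 RPKM), Alpl (11.3 RPKM) and Comp (2.53 RPKM). The part of macrophages and bone in Spp1 was not tested.

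**Figure D5:**
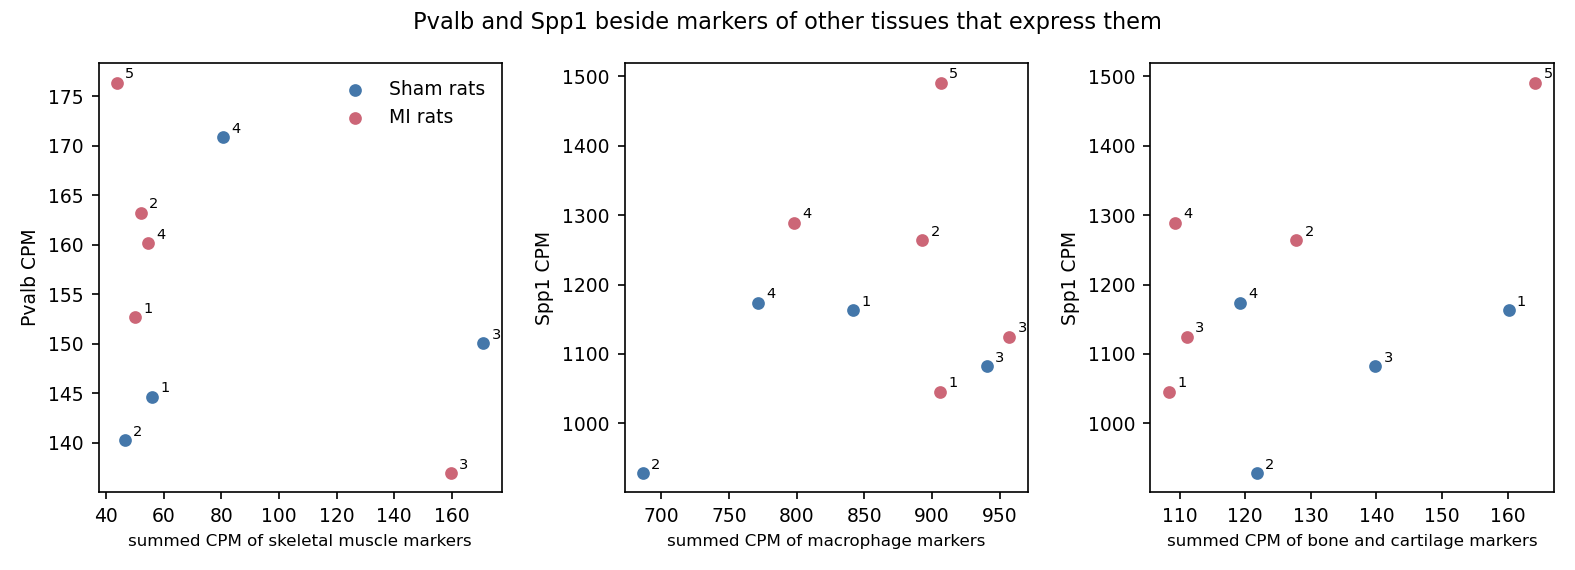
CPM of Pvalb against the summed CPM of skeletal muscle markers (left), and of Spp1 against those of macrophage markers (middle) and of bone and cartilage markers (right), 1 point per rat with replicate numbers; axes do not start at 0. Sham 3 and MI 3 are far to the right for muscle, and Sham 2 is lowest for both macrophage markers and Spp1.

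Ldhb, the subunit that favours use of lactate as fuel, stood at 559 ± 36.3 CPM after MI (SD, n = 5) against 531 ± 20.3 CPM after sham surgery (SD, n = 4). Only MI 4, at 617 CPM, and MI 2, at 559 CPM, exceeded the highest sham value of 556 CPM. The log2 fold change was 0.07 (SE 0.05, edgeR adjusted p = 1.00; interval -0.03 to 0.18). Of 13 tested genes of lactate and glucose use, 10 were higher after MI, the median log2 was 0.05 and 0 passed the threshold. Those of smallest p were Aldoc, the brain aldolase, at log2 0.10 (SE 0.03) and Pdk2, a kinase that restrains pyruvate oxidation, at 0.13 (SE 0.03). In 2 of the 13, Pdk2 and Pkm, a pyruvate kinase at log2 0.08 (SE 0.03), all 5 MI rats lay above every sham rat, as in either direction did 1.76% of all tested genes; Pkm was chosen after its values were seen. Ldha, the other main subunit, was at 155 ± 9.45 RPKM after MI (SD, n = 5) against 156 ± 1.49 RPKM after sham surgery (SD, n = 4).

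Other genes of large-diameter afferents gave the same count in each direction. Of 31 listed symbols, 24 had a row and were tested: 12 were higher and 12 lower in MI, with a median log2 of 0.00, 0 past the threshold and 3 at an unadjusted p under 0.05. Those of smallest p were Ntrk2, the BDNF receptor of touch neurons, at log2 -0.15 (SE 0.06, edgeR adjusted p = 0.892) and Scn1a, a sodium channel of fast-spiking afferents, at 0.12 (SE 0.04, adjusted p = 1.00). Ntrk3, the neurotrophin-3 receptor of proprioceptors, stood at 5.8 ± 0.726 RPKM after MI (SD, n = 5) against 6.32 ± 0.379 RPKM after sham surgery (SD, n = 4).

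Of 17 tested axonal cytoskeleton genes, 6 were higher and 11 lower in MI, with a median log2 of -0.03 and 0 past the threshold. Those of smallest p were Plec, a linker of intermediate filaments, at log2 -0.09 (SE 0.04) and Ina, alpha-internexin, at -0.15 (SE 0.12). Prph, the intermediate filament of small sensory neurons, stood at 599 ± 33.2 RPKM after MI (SD, n = 5) against 627 ± 26.7 RPKM after sham surgery (SD, n = 4), below each of the 3 neurofilament subunits in mean RPKM. Of 18 tested partners of Cntnap2 at the node and juxtaparanode, the axon segment where potassium channels cluster under myelin, 6 were higher and 12 lower, with a median log2 of -0.01. None passed; Mpp2, a membrane scaffold, had log2 -0.50 (SE 0.12, edgeR adjusted p = 0.43) and Sptbn4, a spectrin of the node, had -0.14 (SE 0.05). Of 9 tested osteopontin receptors and proteases, 4 were higher and 5 lower, none passed, and Itgb3 and Itga8 had the smallest p at log2 -0.25 (SE 0.17) and 0.36 (SE 0.37).

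For comparison, small-diameter nociceptor markers had 4 of 20 tested genes higher and 16 lower, with a median log2 of -0.11 and 0 past the threshold. Trpa1, an irritant channel, had log2 -0.40 (SE 0.16, edgeR adjusted p = 0.455) and Gfra3, the artemin receptor, -0.20 (SE 0.09). Their summed level lay between 3502 and 3856 CPM in sham and between 2955 and 4063 CPM in MI rats. In MI 5, where all 3 neurofilament genes were above their means, the nociceptor sum was the lowest of all libraries, while in MI 4, the highest library for neurofilaments, it was 3616 CPM. In Trpa1 all 5 MI rats lay below every sham rat, and 1.76% of all tested genes separated completely in either direction. Whether large- and small-diameter markers differed in their response was not tested. Among pan-neuronal markers 13 of 19 were higher with a median log2 of 0.03, and Rbfox3 and Syt1 had the smallest p at log2 -0.21 (SE 0.11) and -0.14 (SE 0.09).

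Among the supporting cells, Schwann cell myelin markers had 1 of 12 tested genes higher and 11 lower, a median log2 of -0.10 and 0 past the threshold, with Cnp at log2 -0.16 (SE 0.08) and Mbp at -0.21 (SE 0.13). Their sums lay between 11740 and 14750 CPM in sham and between 9776 and 15480 CPM in MI rats. MI 5 and Sham 1 had the highest myelin sums, and the neurofilament genes were above their means in both. The other 4 MI rats, at 9776 to 11682.5 CPM, lay below every sham rat in myelin sum; they include MI 4, highest in neurofilaments, at 10612 CPM and MI 3, lowest in neurofilaments, at 11309.7 CPM. Satellite glia markers had 3 of 9 higher with a median log2 of -0.03, with Ednrb at -0.22 and Slc1a3 at 0.13. Spinal cord glia markers were low, between 18.9 and 58 summed CPM over 8 genes, of which 3 were tested and 0 passed; Aldh1l1 had log2 0.16 and Gfap -0.10, with Gfap at 22.9 ± 7.85 CPM after sham surgery (SD, n = 4) against 21.4 ± 7.59 CPM after MI (SD, n = 5).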

How the data were processed

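Per the series' design text, reads of 75 bases went through bcl2fastq 2.16.0.10 and cutadapt and were aligned to rn6 with STAR 2.3.0 and summarised per gene against Partek 6.6 annotations. The deposited estimated counts hold fractions, above a tolerance of 0.001, in 850 genes; the deposited counts are these, rounded by the authors (largest difference 0.5). The deposited RPKM values, TMM-scaled CPM, fold changes (a linear ratio), mean log2 CPM and p-values are the authors' own. The file headers name the fold change, log CPM and p-value, and the design text names TMM scaling and the likelihood-ratio test. The table of the authors' test used here holds 8000 genes with p up to 0.712 and 6 of the markers. Percent of reads in exons and the RNA integrity score were deposited by the authors too.

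Counts were fitted in R 4.3.3 with edgeR 4.0.16: filterByExpr, TMM, tagwise dispersions, a likelihood-ratio test as in the design text, and Benjamini-Hochberg adjustment over all 11711 tested genes and a threshold of 0.05. CPM values in the text were computed here from the deposited counts. The SE printed beside a fold change was pooled over both groups from log2 CPM (prior count 2) and differs from the error of the edgeR coefficient. Intervals are from limma 3.58.1 (voom). Alternatives included the quasi-likelihood test, DESeq2 1.42.0, other scalings and filters, RPKM on a log2 scale, and fits without each library. The tests were run on simulated data, where only changes much larger than those of the markers had to be recovered. That check does not bear on changes as small as those of the markers. Correlations used exact permutation over all orders of 9 libraries, two-sided. The markers and lists were chosen with earlier results of these data known. Named genes were all markers, the pair with the smallest p in each other list, the 5 most like the neurofilament mean and the 3 of highest RPKM in the muscle, bone and macrophage lists; Ldha, Ntrk3 and Prph were chosen after their values were seen. No source used here states whether counting used strand, so overlapping genes cannot be separated. The 26 date-like identifiers were kept in the fits but left unnamed. Sequences of the marker genes were not used here.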

Additional observations from a re-analysis of the deposited data

Results flagged for a closer look

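Each group's extreme library was checked for a wide gap to its nearest neighbour relative to the group's range, and no marker of large-diameter afferents showed one. Such gaps were found in 9 of 108 sets of values, where chance gives about 5.4, all among comparison genes, list sums and depth. Rbfox3 had 37.55 CPM in Sham 1, below 41.7 to 42.01 CPM elsewhere in its group, and Ednrb had 66.04 CPM in Sham 4, below 70.44 to 71.03 CPM. Myh4 and Acta1, genes of skeletal muscle, were high in Sham 3 at 12.78 CPM against 1.068 to 1.91 and at 30.15 CPM against 12.32 to 15.12. The skeletal muscle sum was high in MI 3 at 159.6 CPM against 43.8 to 54.56 in the other MI rats. Mpp2 was high in MI 1 at 11.57 CPM against 7.845 to 8.484. In Sham 1 the nociceptor sum was low at 3502 CPM against 3834 to 3856, the satellite glia sum was high at 6360 CPM against 5502 to 5558, and total counts were low at 5657000 against 6306000 to 6313000.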

How the results depend on the processing

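None of the 9 markers passed the threshold under any of the 22 alternatives, and 175 of 189 marker values kept their sign. Signs turned for values near 0: over fits without 1 library, log2 fold changes ran from -0.0504 to 0.00194 for Nefh, from -0.0294 to 0.0391 for Nefm, from -0.0653 to 0.0192 for Etv1 and from -0.164 to 0.074 for Runx3. For the markers that kept their sign in these fits the range was 0.0176 (without MI 4) to 0.0841 (without Sham 1) for Nefl, 0.0163 (without MI 5) to 0.12 (without Sham 4) for Pvalb, -0.276 to -0.00679 for Necab2, 0.0348 (without MI 4) to 0.0987 (without MI 3) for Ldhb and 0.12 to 0.25 for Spp1. Among other named genes the range was -0.231 to 0.161 for Gfap, -0.0359 to 0.535 for Itga8 and -1.41 to 0.508 for Myh4, which turned without Sham 3; Acta1 ran from -0.922 without MI 3 to -0.14 without Sham 3. Trpa1 passed with 1 common dispersion (adjusted p = 0.00168) and without MI 1 (0.0469), Mpp2 without MI 1 (0.0277), and Acta1 and Myh4 with 1 common dispersion.

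Over all genes the count of 2 became 0 by the quasi-likelihood test, by limma-voom and for log2(RPKM + 0.1) and log2(RPKM + 1). It became 70 with 1 common dispersion, 4 with upper-quartile scaling, 6 without a filter and 5 at a threshold of 0.10. Without 1 library it lay between 2 and 8: 8 without Sham 3 or MI 1, 6 without MI 5 and 4 without MI 4. With the replicate number as a block it was 12, and Nefm was at -0.0135 and Itga8 at -0.0472. Only MI 5 has the replicate number 5, so in that fit MI 5 did not enter the comparison of the groups. The numbers did not pair the samples: correlations of deviations lay between -0.137 and 0.0916, and 1 of 4 sham libraries correlated best with its own number. The causes of these differences were not tested. Runx3 and Necab2 had few reads, 18 to 40 per library, and the part of depth in their spread was not tested.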
